A study of Mus musculus with 60 samples.

Results

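Collagen chain genes were followed through the early growth of the mouse jaws. They were all genes whose symbol in the platform annotation has the form Col, a type number, a and a chain number. These were 42 of the 18193 genes measured, each represented by its probe set with the highest mean over the 60 arrays. By class, 11 encode fibrillar chains, 9 network-forming chains, 9 fibril-associated chains and 13 other chains, which are the beaded-filament, anchoring-fibril, transmembrane and multiplexin types and Col26a1. RNA came from the lower jaw (mandible) and upper jaw (maxilla) of C57Bl/6 mouse embryos, for which the labels name no mutation or treatment. Jaws were cut into distal and proximal pieces on 5 embryonic (E) days from E10.5 to E14.5, 1 day apart, which gives 20 groups of 3 arrays. Affymetrix Mouse Genome arrays were hybridised with material prepared from 3 micrograms of total RNA. Values are log2 signals, so that a difference of 1 is a doubling of signal, and the number of arrays limits their precision.

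A collagen is a trimer of chains that wind into a triple helix. Fibrillar collagens assemble into the banded fibrils of connective tissue (types I, III and V), bone (mainly type I) or cartilage (types II and XI), and fibril-associated collagens bind to the fibril surface, as type IX does in cartilage and types XII and XIV do in soft connective tissue. Type IV forms the sheet of basement membranes, type VI forms beaded filaments around cells, and types VII and XVII anchor epithelium to the tissue beneath. In the embryonic jaws, collagen is made by mesenchyme derived largely from the neural crest, by the cartilage and membrane bone that arise in it, and by epithelium, vessels and muscle.

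Promoter sequence is shown for 5 collagen genes that stand for the patterns described below. Col1a2 and Col3a1 are fibrillar chain genes that rose with age in both jaws, Col9a2 and Col8a2 were lower distally in both jaws, and Col17a1 was higher distally in both. The 120 bases before the annotated transcript start were taken from RefSeq (build GRCm38.p6) and are printed 5′ to 3′ on the gene's strand, with the matched motifs in capitals. Each motif was searched on both strands. CCAAT is the core of the CCAAT box. TATAAA is that of the TATA box, and the GC box has the core GGGCGG. The core ACAATG and the related core ACAAAG, not found in these windows, are of the kind that SOX proteins bind.
Col1a2 (chr6:4505498-4505617, plus strand): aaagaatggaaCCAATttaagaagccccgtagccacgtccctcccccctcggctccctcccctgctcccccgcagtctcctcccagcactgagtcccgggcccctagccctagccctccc
Col3a1 (chr1:45311418-45311537, plus strand): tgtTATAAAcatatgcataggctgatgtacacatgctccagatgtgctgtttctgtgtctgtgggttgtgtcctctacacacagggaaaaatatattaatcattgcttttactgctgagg
Col9a2 (chr4:121039446-121039565, plus strand): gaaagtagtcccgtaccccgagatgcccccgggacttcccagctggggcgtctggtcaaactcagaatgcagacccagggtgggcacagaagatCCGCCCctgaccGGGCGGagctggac
Col8a2 (chr4:126286674-126286793, plus strand): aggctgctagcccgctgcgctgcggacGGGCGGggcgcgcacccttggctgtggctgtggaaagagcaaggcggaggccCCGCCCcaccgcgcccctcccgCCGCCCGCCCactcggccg
Col17a1 (chr19:47692043-47692162, minus strand): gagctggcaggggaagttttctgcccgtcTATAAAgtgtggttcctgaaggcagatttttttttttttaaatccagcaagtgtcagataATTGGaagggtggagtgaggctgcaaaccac

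RefSeq promoter windows matched 33 of the 42 genes, with 36 windows in all. GGGCGG or its reverse CCGCCC lay in 17 of the 36 collagen windows and in 26.5% of all 32851 windows of this length. CCAAT lay in 6 of the 36 and in 21.3% of all, and TATAAA in 3 and in 6.34%. ACAATG and ACAAAG had 0 matches in the collagen windows, against 4.96% and 7.79% of all windows. These shares describe letters in a window and were not tested.

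Sample titles assign every array to 1 of 4 batches. Mandible arrays of the last 2 ages form batch 1. Maxilla arrays of the last 3 ages form batch 2, together with the E12.5 mandible. E11.5 arrays of either jaw form batch 3 with the E10.5 mandible, and the E10.5 maxilla is batch 4 by itself. Each position difference was therefore formed inside batches, whereas contrasts of position differences between jaws or ages cross them. Jaws and ages were compared inside a batch only. It is not stated whether separate embryos underlie the 3 arrays of each group, so p-values measure a spread between arrays that may be technical. Tests are from limma, with Benjamini-Hochberg adjustment over all genes, and a gene is called at an adjusted p under 0.05.

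No array carried a detection call. The 25th percentile of signal was computed for each array, and its highest value over the arrays, 4.78, serves as a limit, since a group mean that low is not shown to be above background. Col4a3, a chain of specialised basement membranes, and Col6a5 were that low in all 20 groups. Col4a4 was in 18 of them, Col24a1 in 4, Col14a1 and Col8a1 in 2 each and Col17a1 in 1. A fold against such a group is written as at least that size.

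Most collagen genes moved widely over the 20 groups. The distance from the lowest to the highest group mean exceeded 2 log2 units in 25 of the 42 and had a median of 2.78. It was widest for Col14a1, from 4.70 in the proximal mandible at E10.5, which is under the limit of 4.78, to 11.37 in the same piece at E14.5. Of the 42 genes, 33 had their highest group mean at E14.5 and 29 had their lowest at E10.5. Ages in different batches enter these ranges, so they describe the groups and were not tested. Col18a1, a multiplexin of basement membranes, ran the other way, with its highest mean of 11.07 in the proximal mandible at E10.5.

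**Figure D1:**
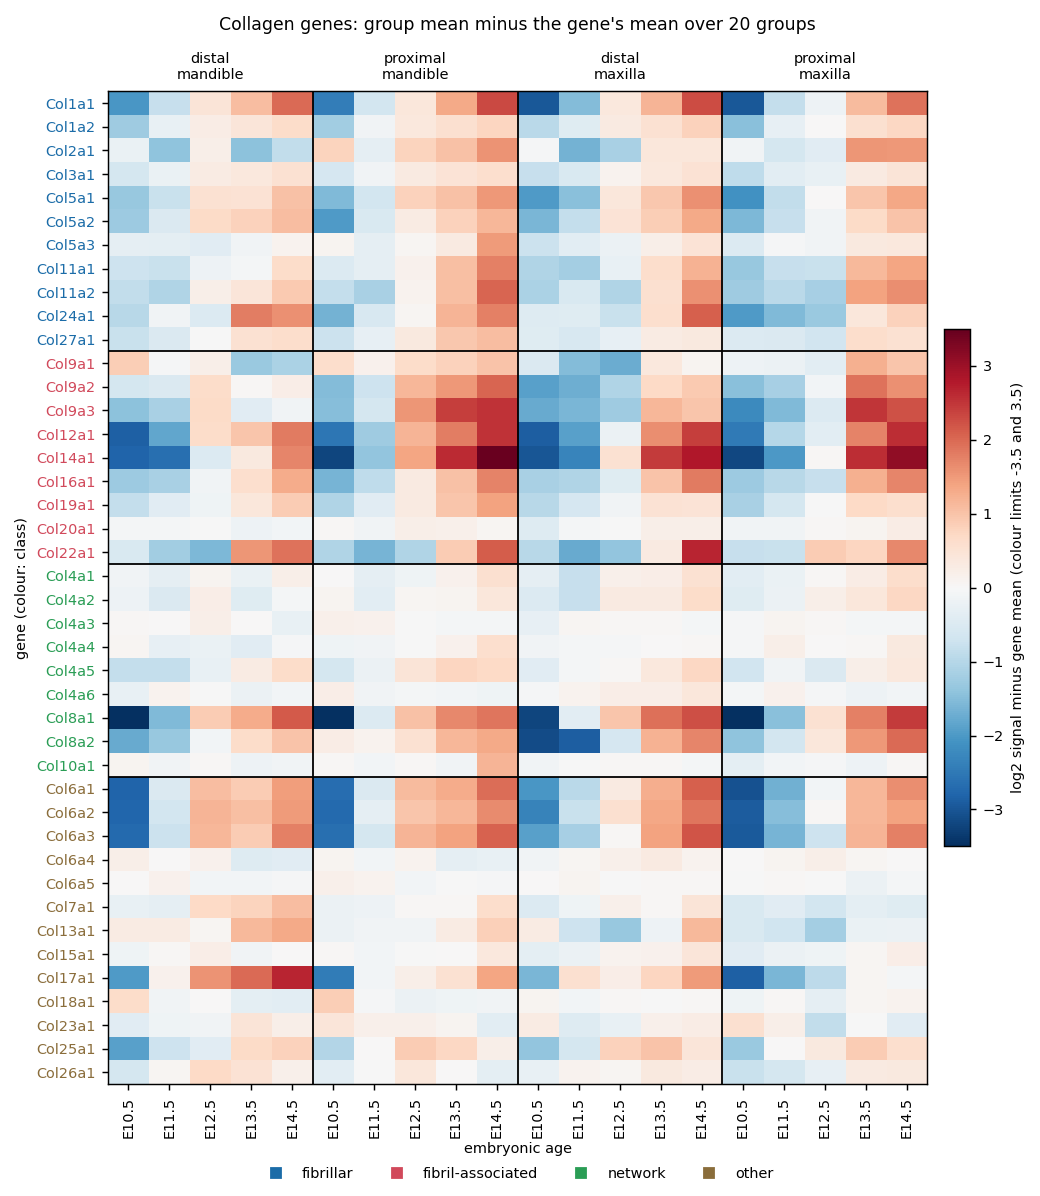
Group mean of each of the 42 collagen genes minus that gene's own mean over the 20 groups, in log2 units. Columns are the 5 ages within each jaw and position, and rows are grouped by class. Most rows pass from blue at E10.5 to red at E14.5, while Col4a3 and Col6a5, under the limit of 4.78 throughout, stay pale.

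Several arrays stood apart from their group for collagen genes. In the proximal mandible at E13.5, replicate 2 gave Col2a1 10.59 where the others gave 12.21 and 12.36, and it lay over 1 log2 unit under both others for Col9a1, Col9a2, Col9a3 and Col11a2 too. Cartilage markers were low on the same array, Matn1 with 9.05 against 11.12 and 11.14 and Acan with 7.08 against 8.81 and 8.76, while the bone gene Ibsp read 12.07, 12.17 and 12.11 on replicates 1 to 3. In the proximal mandible at E14.5, replicate 1 alone carried Col10a1 signal, described below. Further arrays lay over 1 log2 unit from both others of their group for at least 1 collagen gene in the distal mandible at E14.5, the mandible at E11.5 and the maxilla at E10.5. Position differences of the cartilage chains at E13.5 are given with and without the proximal array of that age, and that of Col10a1 at E14.5 likewise. Counts without the E11.5 mandible arrays or the E10.5 arrays are given beside some of the comparisons they enter. The distal E14.5 array was not left out by itself.

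The first comparison concerned collagen transcripts along the length of the lower jaw. On the mean of 5 ages, 28 of the 42 collagen genes were called, where 36.3% of all genes were. Of these, 6 were higher distally (18.3% of all genes) and 22 lower (17.9%). With every array set to a median of 0, 6 were higher and 20 lower, which moved the share of higher among all called genes from 50.6% to 64.1%. Without the proximal E13.5 array that stood apart the counts were 6 and 22, and without the proximal E14.5 one 6 and 21. Leaving out distal replicate 3 and proximal replicate 1 of E11.5 gave 6 and 21. Leaving out distal replicate 2 and proximal replicate 1 of E11.5 gave 7 and 22. The fibril-associated class had 8 of its 9 genes lower and 0 higher, with a median difference of -0.54. Fibrillar genes split into 2 higher and 6 lower of 11, network genes into 0 higher and 5 lower of 9, and the others into 4 higher and 3 lower of 13. The median difference was -0.22 over the 42 genes and 0.01 over all genes. In pieces of tissue, fewer cells of a type and less RNA per cell cannot be told apart.

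Cartilage chains led the genes lower in the distal mandible. Col2a1, the chain of type II collagen, ranged from 8.92 to 10.91 on the 15 distal arrays (median 9.71) and from 10.23 to 12.64 on the 15 proximal ones (median 11.49). The proximal signal was 2.88-fold the distal, with a log2 difference of -1.53 (SE 0.0989, adjusted p 2.74e-18, limma). The ranges overlapped over the ages, but the distal mean was the lower at each of the 5 ages. Col9a3, a chain of type IX collagen that coats cartilage fibrils, ranged from 6.95 to 9.32 distally (median 8.04) and from 6.996 to 11.74 proximally (median 10.08). Its difference was -1.36 (SE 0.112, adjusted p 1.38e-14), again with overlapping ranges. That difference went from 0.06 at E10.5 to -2.81 at E13.5, and with each group mean taken as a single sample, so that variation over ages is the error, its adjusted p was 0.103.

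Chains outside cartilage were also lower in the distal mandible. Col14a1, a fibril-associated chain of soft connective tissue, ranged from 4.86 to 9.71 distally (median 7.42) and from 4.42 to 11.41 proximally (median 9.30). The difference was -1.35 (SE 0.0712, adjusted p 1.17e-21), its size being uncertain because the proximal E10.5 group was under the limit, and it was -0.82 with the mean of its probe sets. Ranges overlapped across the ages. Col8a2, a chain of the hexagonal network of type VIII collagen, ranged from 8.01 to 10.99 distally (median 9.73) and from 9.85 to 11.32 proximally (median 10.36), with a difference of -0.99 (SE 0.0849, adjusted p 5.36e-14). Like Col9a3, Col8a2 lost its call when group means were the samples, with an adjusted p of 0.112.

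Col17a1, Col13a1, Col7a1 and Col26a1 led those higher in the distal mandible. Col17a1, the transmembrane collagen of hemidesmosomes, ranged from 5.13 to 10.28 distally (median 9.08) and from 4.73 to 9.10 proximally (median 7.78), a 1.94-fold difference (log2 0.96, SE 0.102, adjusted p 4.39e-11). The distal mean was the higher at each age. Col13a1, a transmembrane collagen, was 0.49 higher (SE 0.0584, adjusted p 1.18e-09), Col7a1, the anchoring-fibril chain, 0.34 higher (SE 0.0555, adjusted p 1.5e-06) and Col26a1 0.23 higher (SE 0.0312, adjusted p 3.49e-08). Their distal and proximal ranges overlapped. With group means as the samples, Col17a1 kept its call, while the adjusted p was 0.2 for Col13a1, 0.259 for Col7a1 and 0.41 for Col26a1. The mean of its probe sets gave 0.08 for Col26a1, and leaving out the E10.5 arrays gave 0.35. Other transmembrane chains did not share the distal excess. Col25a1 was called lower distally at 3 of the 5 ages and higher at 1, and Col23a1 lower at 3 and higher at 2.

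Markers of other cell types moved along the mandible with these genes. Of 9 cartilage markers, 8 were lower distally, and their summed log2 signal ran from 55.04 to 70.63 over distal arrays and from 58.04 to 86.88 over proximal ones. Matn1 and Cnmd were each under the limit of 4.78 in 1 of the 20 groups, and the other cartilage markers were above it in all. Surface epithelium markers were higher distally in 8 of 8, with sums from 74.25 to 96.92 against 71.79 to 89.14. Skeletal muscle markers were lower in 6 of 6, endothelial ones in 7 of 8 and macrophage ones in 5 of 5. Cardiac muscle markers were lower in 3 of 4 on the mean of the ages and in 4 of 4 at E10.5. At that age their sums ran from 18.7 to 19.5 distally against 36.63 to 37.14 proximally. Of these markers, Nppa was at or under the limit in all 20 groups and Myl2 in 16. What part these shifts had in the collagen differences was not tested.

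**Figure D2:**
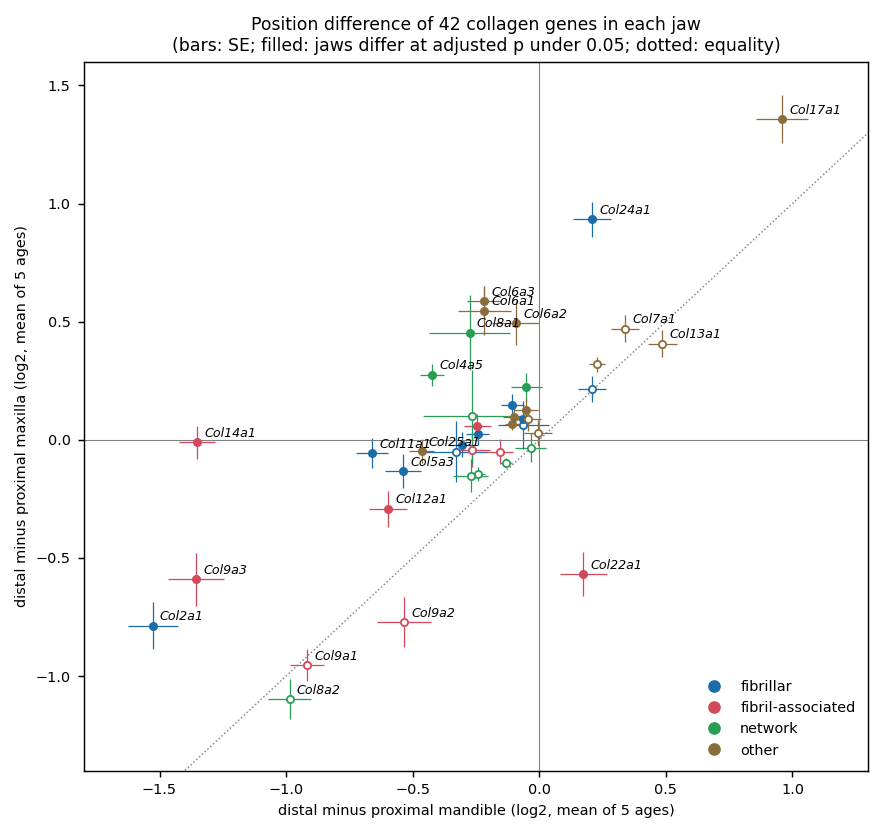
Distal minus proximal log2 difference of the 42 collagen genes, averaged over 5 ages, in the mandible (horizontal) and the maxilla (vertical). Bars are standard errors, colours are classes, filled points are the 24 genes whose difference is called as unlike between the jaws, and the dotted line marks equality. Most filled points lie above the line.

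In the maxilla, 26 of the 42 collagen genes differed by position, where 50.6% of all genes did, with 17 higher distally (31.6% of all genes) and 9 lower (19%). Centring gave 19 and 8, and moved the share of higher among all called genes from 62.4% to 77.8%. The count of higher genes depended on which arrays entered: without replicate 3 of each group 11 were higher and 10 lower, without replicate 2 12 and 9, and without the E10.5 arrays 14 and 9. The class of other chains, with the multiplexins and Col26a1 among them, had 10 of 13 higher and 0 lower. Fibril-associated genes had 0 higher and 5 lower of 9, network genes 3 and 3 of 9, and fibrillar genes 4 and 1 of 11. The median difference was 0.04 over the 42 genes and 0.04 over all genes. The direction was not the same at every age. At the 5 ages in order, 9, 7, 20, 3 and 10 of the 42 were called higher distally and 2, 13, 6, 6 and 4 lower. More were thus lower than higher at E11.5 and E13.5. Shares of all genes called at each age, in either direction, are given below.

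Col17a1 showed the widest distal excess in the maxilla. It ranged from 5.27 to 9.06 distally (median 8.12) and from 4.29 to 7.69 proximally (median 6.60), at least a 2.56-fold difference because the proximal E10.5 mean was under the limit (log2 1.36, SE 0.102, adjusted p 2.29e-16). Col24a1, a fibrillar chain linked to bone formation, was at least 1.91-fold higher (0.93, SE 0.0754, adjusted p 2.54e-15), with 3 proximal groups under the limit. The distal arrays of Col24a1 ran from 5.07 to 8.05 and the proximal ones from 3.73 to 6.86. Col6a3, a chain of the beaded filaments of type VI, ran from 8.21 to 12.87 distally (median 10.68) and from 7.31 to 12.46 proximally (median 9.87), with a difference of 0.59 (SE 0.0672, adjusted p 1.59e-10). Its partner chain Col6a1 differed by 0.55 (SE 0.104, adjusted p 1.35e-05), from 6.71 to 11.79 distally against 5.99 to 11.39 proximally. All of these ranges overlapped across the ages.

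Lower in the distal maxilla were Col8a2 and cartilage chains. Col8a2 ran from 5.70 to 11.57 distally (median 9.25) and from 8.27 to 11.84 proximally (median 10.23), with a difference of -1.10 (SE 0.0849, adjusted p 5.62e-16). Col9a1 ran from 10.04 to 12.23 distally (median 11.34) and from 11.45 to 13.11 proximally (median 11.70), with -0.95 (SE 0.0666, adjusted p 1.40e-17). Col2a1 differed by -0.79 (SE 0.0989, adjusted p 1.79e-09) and Col9a2 by -0.77 (SE 0.106, adjusted p 1.73e-08), both with overlapping ranges. With group means as the samples the adjusted p was 0.0621 for Col9a1, 0.0666 for Col2a1 and 0.115 for Col9a2, so these calls did not hold there. Cartilage markers were lower distally in 4 of 9, with sums from 54.15 to 75.6 against 55.94 to 82.1, surface epithelium markers higher in 8 of 8 and bone markers higher in 6 of 6. By single age from E10.5 to E14.5, bone markers were called higher in 1, 1, 2, 3 and 6 of 6. Among the bone markers, Ibsp and Phex were at or under the limit of 4.78 in 9 of the 20 groups each and Dmp1 in 12. Neuron markers were lower distally in 5 of 5 and skeletal muscle markers in 6 of 6 on the mean of the ages. By single age, muscle markers were lower distally in 3 of 6 at E10.5 and in 6 of 6 at E11.5. At E12.5, E13.5 and E14.5, 0 of 6 were called in either direction. The part of these shifts in the collagen differences was not tested.

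Across the jaws, 6 collagen genes were called higher distally in both (Col5a2, Col7a1, Col13a1, Col17a1, Col24a1 and Col26a1) and 8 lower in both (Col2a1, Col4a1, Col4a2, Col8a2, Col9a1, Col9a2, Col9a3 and Col12a1). Col4a5, Col6a3 and Col18a1 were called lower in the distal mandible and higher in the distal maxilla. Col1a1, Col4a3, Col6a4, Col6a5 and Col10a1 were called in neither. Of all genes, 36.3% were called in the mandible and 50.6% in the maxilla. The share of all genes called in both jaws or in neither was not counted, so these numbers describe the collagen genes without a background.

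A direct test of the contrast between the jaws called 24 of the 42 genes, where 39.9% of all genes were called, with 1 more distal in the mandible (16.1% of all genes) and 23 less so (23.8%). Centring gave 1 and 26, and moved the share of higher among all called genes from 40.3% to 29.8%. Col14a1 had the widest gap, -1.34 (SE 0.101, adjusted p 4.59e-16), with -1.35 for mandible and -0.01 for maxilla, a gap of uncertain size because 2 E10.5 groups were under the limit. Type VI chains differed too, with Col6a3 at -0.80 (SE 0.0951, adjusted p 7.45e-10), from -0.22 in the mandible and 0.59 in the maxilla, and Col6a1 at -0.76 (SE 0.148, adjusted p 2.67e-05), from -0.22, which was not called, and 0.55. Col9a3 differed by -0.76 (SE 0.159, adjusted p 8.05e-05). Col22a1, a chain of tissue junctions such as those of muscle and tendon, was the gene with a positive contrast, 0.74 (SE 0.132, adjusted p 6.76e-06), from 0.17 in the mandible, which was not called, and -0.57 in the maxilla.

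These contrasts draw on differences measured in separate batches. With group means as the samples, 4 collagen contrasts were called, where 3.74% of all genes were, and the adjusted p was 0.108 for Col14a1, 0.508 for Col9a3 and 0.441 for Col22a1, while Col6a1 and Col6a3 stayed under 0.05. Taking the mean of its probe sets moved the contrast of Col14a1 to -0.85 and that of Col22a1 to 0.40, both still called.

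Position differences changed with age. From the earliest age to the latest, the number of the 42 called in the mandible was 14, 9, 22, 27 and 25, where 19.1%, 8.93%, 32.7%, 25.3% and 26.8% of all genes were called. In the maxilla the numbers were 11, 20, 26, 9 and 14, against 20.2%, 34.7%, 39%, 15.7% and 33.7%. An F test of whether the difference was the same at all ages, which crosses batches, called 28 of the 42 mandibular differences and 27 of the maxillary ones, where 43.6% and 37.7% of all genes were called. Genes named for their course over the ages were chosen after their values were seen.

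In the mandible Col2a1 was lower distally at every age, while the type IX chains were not called lower before E12.5, and the differences of Col2a1, the type IX chains and Col11a1 were widest at E13.5 and E14.5. Col2a1 read 10.47, 10.47 and 10.40 distally and 11.42, 11.52 and 11.46 proximally at E10.5, groups that did not overlap, a difference of -1.02 (SE 0.221). At E14.5 Col2a1 read 9.28, 9.71 and 10.49 distally and 12.64, 12.06 and 12.11 proximally, again apart, a difference of -2.44. The same difference was -2.47 at E13.5 and -3.03 without the array that stood apart. Col9a3 read 7.198, 6.997 and 7.152 distally and 7.164, 7.007 and 6.996 proximally at E10.5, groups that overlapped, with 0.06. At E13.5 Col9a3 read 8.23, 8.04 and 8.19 against 11.35, 9.80 and 11.74, with no overlap, a difference of -2.81, or -3.39 without that array. Col9a1 went from 0.26 at E10.5 to -2.12 at E13.5 (-2.53 without that array), Col9a2 from 0.90 to -1.48 (-1.98) and Col11a1, a chain of the thin cartilage fibril, from -0.25 to -1.12 (-1.46). The F test over the ages gave adjusted p of 4.86e-07 for Col2a1, 4.24e-10 for Col9a3, 3.02e-15 for Col9a1, 4.67e-09 for Col9a2 and 8.41e-05 for Col11a1.

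The mean position difference of the 9 cartilage markers in the mandible was -0.30 at E10.5 and -0.41 at E11.5, then -0.31, -1.85 and -1.96 at the later ages. Their part in the courses of the cartilage chains was not tested. In the maxilla, Col2a1 differed by 0.09 at E10.5 and by -1.04 to -0.75 from E11.5 to E12.5, then by -1.13 and -1.11, all but the E10.5 value called. For Col11a2, a further chain of type XI, the E13.5 difference in the mandible was -0.63 and not called, but -1.16 (adjusted p 0.00108, limma) without the array that stood apart.

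**Figure D3:**
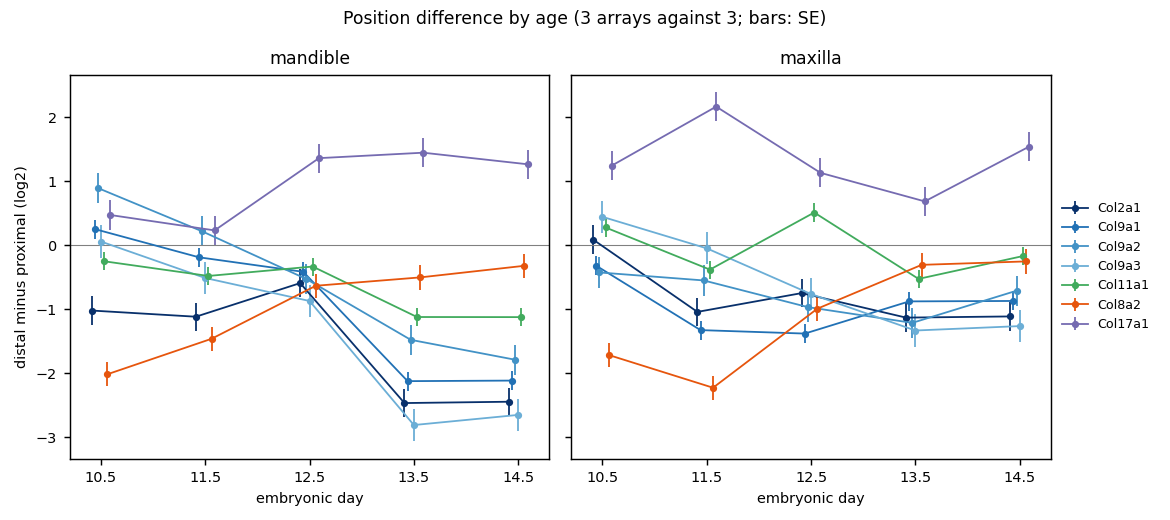
Distal minus proximal log2 difference by age for 7 collagen genes in the mandible (left) and maxilla (right), 3 arrays against 3, with standard errors. In the mandible the cartilage chains lie between -1.12 and -2.81 at E13.5 (-1.46 and -3.39 without the array that stood apart), while Col8a2 rises from -2.02 at E10.5 to -0.32 at E14.5. Col17a1 is above 0 throughout.

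Col8a2 took the opposite course. In the mandible at E10.5 it read 8.14, 8.01 and 8.05 distally and 10.09, 10.06 and 10.10 proximally, far apart, a difference of -2.02 (SE 0.190). At E14.5 it read 10.73, 10.79 and 10.99 against 11.32, 11.06 and 11.08, a gap of -0.32 that was not called, although the groups did not overlap. In the maxilla at E11.5 Col8a2 read 7.029, 6.848 and 6.996 against 9.16, 9.21 and 9.18, a difference of -2.23, which was -0.25 and not called at E14.5. The F test over the ages gave adjusted p of 1.00e-06 and 1.33e-08 in mandible and maxilla. The plot of 8 genes on all arrays shows its distal and proximal levels at each age.

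Other genes changed the sign of their position difference. Col22a1 in the maxilla at E12.5 read 5.72, 5.58 and 5.75 distally and 7.93, 7.76 and 8.08 proximally, a difference of -2.24. At E14.5 it read 9.77, 9.73 and 9.62 against 8.80, 8.68 and 8.69, now higher distally by 0.98, with no overlap at either age. Col23a1, a transmembrane collagen, went in the mandible from -0.80 at E10.5 to 0.56 at E14.5, both called. Col25a1, a transmembrane collagen known from muscle innervation, went there from -0.87 to 0.60, both called. Col26a1 was lower distally in the mandible at E10.5 by 0.26, which was called, and higher by 0.53 at E14.5. Col14a1 in the mandible differed by 0.40 at E10.5, not called, and by -1.25, -1.88, -2.26 and -1.77 from E11.5 on.

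**Figure D4:**
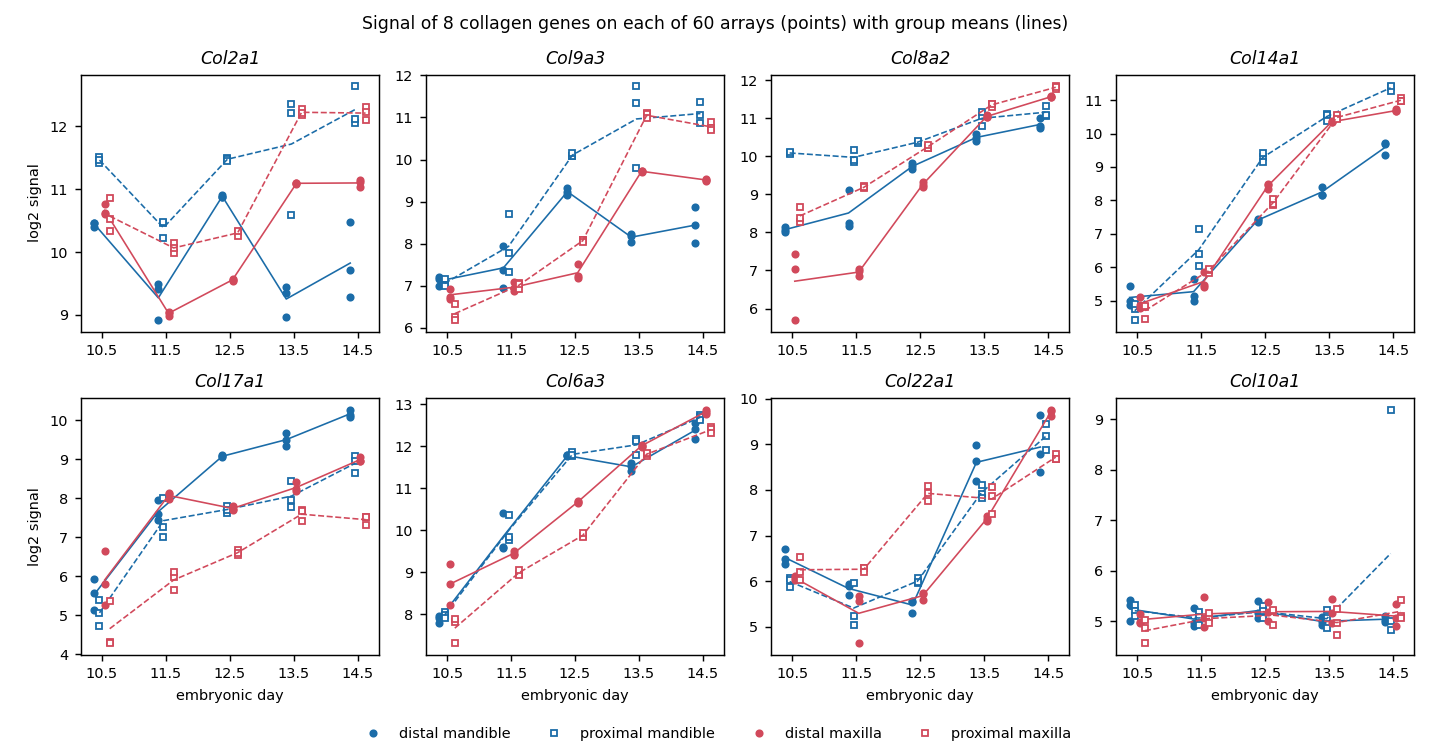
Log2 signal of 8 collagen genes on each of the 60 arrays (points) by age, with lines through group means. Blue is mandible, red maxilla, filled circles with solid lines distal and open squares with dashed lines proximal. For Col10a1 a single proximal mandible array at E14.5 stands at 9.195 over all others.

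Col10a1, the chain made by hypertrophic chondrocytes, was singled out after its values were seen. In the proximal mandible at E14.5 it read 9.195, 5.002 and 4.821, and distally 4.991, 5.092 and 5.03. The high value came from replicate 1, and its gap of 4.19 above the other arrays of its group was the largest of any gene on that array. On every other array Col10a1 read 5.477 or less. The position difference at E14.5 was -1.30 and was called with this array (adjusted p 0.0212, limma). Without replicate 1 it was 0.13, with an adjusted p of 0.642 (limma). The cartilage markers other than Ucma were also highest on replicate 1 of that group, by smaller gaps. On replicates 1 to 3 Acan read 9.62, 8.81 and 9.17, Matn1 12.08, 11.78 and 11.78 and Sox9 9.05, 8.92 and 8.75. Comp read 8.938, 8.015 and 7.748, and Ucma 5.932, 6.135 and 5.853. This was not particular to cartilage. The bone markers Sp7 (9.426, 9.383 and 8.901), Alpl, Phex and Ifitm5 were highest on replicate 1 too, while Ibsp and Dmp1 were not. The part of these markers was not tested.

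Mandible and maxilla were compared at E11.5 and E12.5, the ages at which they share a batch, over 6 arrays a jaw. At E11.5, 19 of the 42 genes were called, where 33.5% of all genes were, 17 higher in the mandible (21.2% of all genes) and 2 lower (12.3%). Without distal replicate 3 and proximal replicate 1 of the E11.5 mandible, 17 were higher and 3 lower, and the share of higher among all called genes went from 63.4% to 48.6%. Without distal replicate 2 and proximal replicate 1, which had most genes apart there, 13 were higher and 3 lower. At E12.5, 25 were called, where 41.3% of all genes were, 22 higher (24%) and 3 lower (17.3%). Fibrillar genes had 6 and then 8 of 11 higher in the mandible and 0 lower at either age. Over the 42 genes the median difference was 0.16 and then 0.33, and over all genes 0.04 and 0.02.

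At E11.5 Col8a2 ran from 8.17 to 10.16 in the mandible (median 9.47) and from 6.85 to 9.21 in the maxilla (median 8.10), a difference of 1.17 (SE 0.134, adjusted p 6.12e-10). Col9a1 did not overlap, from 11.77 to 12.03 against 10.28 to 11.69, and was 1.90-fold higher (0.93, SE 0.105, adjusted p 4.78e-10). In the distal pieces alone Col9a1 differed by 1.49, and in the proximal ones by 0.36 with an adjusted p of 0.062. Col9a2 was higher by 0.82 (adjusted p 9.93e-05) and Col6a1 by 0.80 (adjusted p 0.000111), with overlapping ranges; neither held in 1 of the positions, proximal for Col9a2 (0.43, adjusted p 0.171) and distal for Col6a1 (0.43, adjusted p 0.183). Without distal replicate 2 and proximal replicate 1 of the mandible, Col6a1 was higher by 0.48 (adjusted p 0.0127). Col4a5, a basement membrane chain, was lower in the mandible (difference -0.43, SE 0.0757, adjusted p 8.45e-06), which was -0.76 in the distal pieces and -0.10 in the proximal ones (adjusted p 0.547). Skeletal muscle markers were higher in the mandible in 6 of 6 and neuron markers lower in 5 of 5, and their part was not tested.

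At E12.5 the type II, IX and XI chains and Col6a1, Col6a2 and Col6a3 were higher in the mandible without overlap, whereas Col6a4 and Col6a5 overlapped. Col9a3 ran from 9.15 to 10.16 in the mandible (median 9.70) and from 7.18 to 8.08 in the maxilla (median 7.79), a 3.95-fold difference (1.98, SE 0.177, adjusted p 2.16e-13). Col6a3 ran from 11.76 to 11.86 against 9.84 to 10.69, 2.86-fold (1.52, SE 0.106, adjusted p 6.35e-17). Col9a2 differed by 1.47 (SE 0.168, adjusted p 2.75e-10) and Col9a1 by 1.47 (SE 0.105, adjusted p 1.45e-16). Cartilage markers were higher in the mandible in 6 of 9, with sums from 66.8 to 70.18 against 56.13 to 57.29, and bone markers in 5 of 6. Their part in the collagen differences was not tested.

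Lower in the mandible at E12.5 were Col22a1, Col25a1 and Col4a1. Col22a1 ran from 5.30 to 6.06 in the mandible and from 5.58 to 8.08 in the maxilla, a difference of -1.07 (SE 0.148, adjusted p 3.81e-08) that was -1.92 in the proximal pieces and -0.21, not called (adjusted p 0.562), in the distal ones. The mean of its probe sets gave -0.62. Col25a1 averaged -0.33 (SE 0.0788, adjusted p 0.000478), or -0.20 with the mean of its probe sets, but the positions disagreed, with -1.21 distally and 0.55 proximally, both called. Col4a1, a main chain of basement membranes, differed by -0.13 (SE 0.0364, adjusted p 0.00302), a call lost in the distal pieces alone (adjusted p 0.345) and with the mean of its probe sets (adjusted p 0.0734). Neuron markers were lower in the mandible in 5 of 5 and skeletal muscle markers in 6 of 6 on the mean of the positions. For muscle the positions disagreed. The summed log2 signal ran from 42.58 to 43.76 in the distal mandible against 62.5 to 62.78 in the distal maxilla. Proximally it was higher in the mandible, from 66.01 to 66.52 against 60.54 to 61.32. The part of these markers was not tested.

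Ages were compared over 6 arrays each, both positions together, for the intervals that lie within a batch. From E10.5 to E11.5 in the mandible, 27 of the 42 genes were called, where 44.3% of all genes were, 21 of them rising (27.7% of all genes) and 6 falling (16.5%), or 19 and 7 without distal replicate 3 and proximal replicate 1 of E11.5, and 18 and 7 without distal replicate 2 and proximal replicate 1. From E13.5 to E14.5 in the mandible, 26 were called, where 30.6% of all genes were, 24 rising (13.3%) and 2 falling (17.2%), or 23 and 2 without the E13.5 array that stood apart and 24 and 2 without the E14.5 one. From E12.5 to E13.5 in the maxilla, 32 were called, where 44.1% of all genes were, 32 rising (24.5%) and 0 falling (19.6%). From E13.5 to E14.5 in the maxilla, 21 were called, where 23.1% of all genes were, 20 rising (10.3%) and 1 falling (12.9%). Over the whole span from E12.5 to E14.5 in the maxilla, 35 rose (26.5% of all genes) and 0 fell (27.8%), where 54.3% of all genes were called. In these 4 steps of a day the median difference over the 42 genes was 0.18, 0.37, 0.71 and 0.22, and over all genes it was 0.03, -0.03, -0.02 and -0.015. Centring each array on its median shifted the median of all genes by -0.17 in the first step, by -0.14 from E12.5 to E13.5 and by -0.14 over the whole maxillary span. It moved the share of rising among all called genes from 62.6% to 25%, from 55.5% to 23.5% and from 48.8% to 25.7% there, and the collagen counts to 19 rising and 11 falling, 30 and 1, and 32 and 3.

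Of the 42 genes, 10 rose in each of the 4 steps. They were Col1a1, Col1a2, Col3a1, Col5a1 and Col5a2 of the fibrillar class, Col12a1, Col14a1 and Col16a1 of the fibril-associated class, and Col6a1 and Col6a3. A further 10 rose in 3 steps, 11 in 2, 5 in 1 and 6 in none, the last being Col4a3, Col4a6, Col6a4, Col6a5, Col10a1 and Col20a1. The share of all genes rising in as many steps was not counted, so these numbers describe the collagen genes without a background. The E13.5 maxilla arrays serve both of the last steps, once as the later and once as the earlier age.

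**Figure D5:**
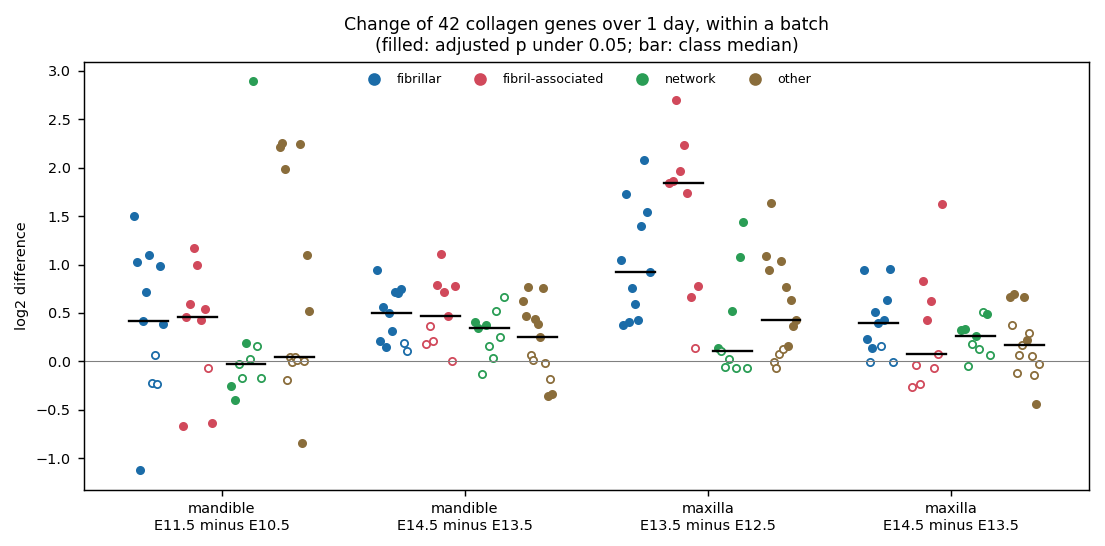
Log2 change of the 42 collagen genes over each 1-day interval that lies within a batch, by class (colours), with the class median as a bar. Filled points are called at an adjusted p under 0.05. In the maxilla from E12.5 to E13.5 the fibril-associated median is 1.85 and the fibrillar median 0.92.

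From E10.5 to E11.5 in the mandible, Col8a1, Col6a2, Col17a1 and Col6a1 had the widest rises, while the network class as a whole had 2 of 9 rising and 2 falling. Col8a1 ran from 4.33 to 5.11 at E10.5 and from 6.39 to 9.26 at E11.5, at least 7.43-fold higher without overlap (2.89, SE 0.252, adjusted p 7.44e-14), the distal E10.5 mean being under the limit; the mean of its probe sets gave 1.43. Col6a2 ran from 8.12 to 8.34 and then from 9.73 to 11.29, 4.78-fold higher (2.26, SE 0.147, adjusted p 4.73e-18). Col17a1 rose by 2.24 (SE 0.162, adjusted p 1.35e-16) and Col6a1 by 2.21 (SE 0.165, adjusted p 4.35e-16), each without overlap. Muscle and tendon markers rose with them, in 6 of 6 and 3 of 3, and surface epithelium markers in 4 of 8, and their part was not tested.

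Cartilage and basement membrane chains fell over the same day. Col2a1 ran from 10.40 to 11.52 at E10.5 (median 10.95) and from 8.92 to 10.48 at E11.5 (median 9.86), overlapping slightly, a difference of -1.12 (SE 0.156, adjusted p 3.15e-08). Col18a1 fell without overlap, from 10.82 to 11.11 down to 9.98 to 10.21, with -0.84 (SE 0.0434, adjusted p 1.39e-21). Col9a1 went from 12.42 to 12.70 down to 11.77 to 12.03, with -0.67 (SE 0.105, adjusted p 4.67e-07), and its other probe set gave -0.87. The other type IX chains went the opposite way, Col9a2 rising by 0.46 and Col9a3 by 0.60, both called. Col22a1 fell with -0.63 (SE 0.148, adjusted p 0.000346) and overlapping ranges. Cartilage markers split here, with 2 of 9 rising and 2 falling. Cardiac muscle markers, whose signal was high in the proximal piece at E10.5, fell in 3 of 4 and rose in 1. The part of these markers was not tested.

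From E13.5 to E14.5 in the mandible, soft tissue and bone chains rose. Col14a1 rose from a median of 9.39 to 10.498 (1.10, SE 0.113, adjusted p 3.10e-11), its ranges overlapping across positions. Col1a1, the main chain of bone and skin collagen, ran from 11.10 to 11.85 and then from 12.09 to 12.70, with no overlap, 1.93-fold higher (0.95, SE 0.161, adjusted p 5.56e-06). Col12a1 rose by 0.79 (SE 0.121, adjusted p 6.65e-07), or by 0.36 with the mean of its probe sets. Col22a1 rose by 0.78 (SE 0.148, adjusted p 3.49e-05), by 1.23 in the proximal pieces and by 0.34 in the distal ones, which was not called (adjusted p 0.317). Col23a1 fell with -0.36 (SE 0.0652, adjusted p 1.49e-05) and Col26a1 with -0.33 (SE 0.0493, adjusted p 3.61e-07), the latter not called with the mean of its probe sets (adjusted p 0.099). Bone markers rose in 5 of 6, cartilage markers in 6 of 9 and surface epithelium markers in 8 of 8, and their part was not tested.

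The maxilla from E12.5 to E13.5 held the broadest rise among these steps, in which fibrillar genes rose in 11 of 11 and fibril-associated ones in 8 of 9. Col9a3 ran from 7.18 to 8.08 and then from 9.71 to 11.10, 6.48-fold higher without overlap (2.70, SE 0.177, adjusted p 1.26e-17). Col14a1 rose 4.72-fold (2.24, SE 0.113, adjusted p 7.72e-22), from a range of 7.86 to 8.49 up to 10.33 to 10.55. Col11a2 rose 4.23-fold (2.08, SE 0.203, adjusted p 3.95e-12) and Col12a1 3.90-fold (1.96, SE 0.121, adjusted p 1.29e-18), both without overlap. The mean of the probe sets gave smaller rises of 1.35 for Col14a1 and 0.84 for Col12a1. For Col25a1 the probe sets went opposite ways and both were called, which occurred in this 1 of 420 pairs of gene and comparison. Cartilage markers rose in 7 of 9, with sums from 56.13 to 57.29 and then from 72.83 to 79.59, and bone markers in 6 of 6, and their part was not tested.

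From E13.5 to E14.5 in the maxilla, the type IX chains and Col2a1 were not called, while bone and junction chains rose. Col22a1 ran from 7.32 to 8.07 and then from 8.68 to 9.77, 3.09-fold higher without overlap (1.63, SE 0.148, adjusted p 4.03e-12), a rise of 1.02 with the mean of its probe sets and of 0.92 in the proximal pieces. Col24a1 rose by 0.96 (SE 0.119, adjusted p 1.99e-08), by 1.5003 distally and by 0.41 proximally, which was not called (adjusted p 0.0852). Col1a1 rose by 0.95 (SE 0.161, adjusted p 1.07e-05) and Col12a1 by 0.83 (SE 0.121, adjusted p 6.02e-07), both without overlap. With the mean of its probe sets Col12a1 rose by 0.43. Col25a1 fell from a range of 10.21 to 10.56 down to 9.73 to 10.17, with -0.44 (SE 0.0788, adjusted p 2.71e-05), or -0.22 with the mean of its probe sets, a call that missed the threshold in the proximal pieces (adjusted p 0.0521). Bone markers rose in 6 of 6 and cartilage markers in 2 of 9, with 1 falling, and their part was not tested.

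Over the full span from E12.5 to E14.5 in the maxilla, Col12a1 rose 6.92-fold (2.79, SE 0.121, adjusted p 3.97e-25), from 8.91 to 9.21 up to 11.61 to 12.001. Col11a2 rose 6.55-fold (2.71, SE 0.203, adjusted p 2.43e-16) and Col14a1 6.33-fold (2.66, SE 0.113, adjusted p 1.58e-25). Col24a1 rose at least 5.68-fold (2.50, SE 0.119, adjusted p 1.60e-23), with a proximal E12.5 mean under the limit. None of these ranges overlapped. The mean of the probe sets gave 1.27 for Col12a1 and 1.74 for Col14a1.

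Chains that assemble into 1 trimer were set beside each other over the 20 group means and over the 10 position differences (5 ages in each jaw). These correlations describe values that share arrays and overall growth with age, and were not tested. Col6a1 followed Col6a2 (r = 0.994 and 0.853) and Col6a3 (0.993 and 0.932), as Col4a1 followed Col4a2 (0.947 and 0.982) and Col5a1 followed Col5a2 (0.971 and 0.692). Col1a1 and Col1a2 went together over the groups (0.970) but less over position (0.474). Col9a2 and Col9a3 had 0.972 and 0.778, whereas Col9a1 with Col9a3 had 0.601 over the groups and 0.787 over position. Col8a1 and Col8a2 had 0.747 over the groups and -0.323 over position, and Col4a5 and Col4a6 had 0.0164 and 0.393.

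Some of these pairs are neighbours in the RefSeq gene table (GRCm38.p6). Col4a1 and Col4a2 lie beside each other on opposite strands, as do Col4a6 and Col4a5, and the table gives Col6a2 and Col6a1 as neighbours on the minus strand. Of the 7 neighbouring pairs in all, Col4a1 with Col4a2, Col6a2 with Col6a1 and Col3a1 with Col5a2 (r = 0.968 over the groups and 0.549 over position) had group means that ran together. The other pairs did not, with r over the groups of 0.0164 for Col4a6 and Col4a5, -0.204 for Col4a4 and Col4a3, 0.245 for Col9a1 and Col19a1 and 0.2 for Col6a5 and Col6a4. Over position the same pairs had 0.393, -0.0327, 0.703 and 0.493, so Col9a1 and Col19a1 were closer there than Col3a1 and Col5a2.

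Collagen genes were also set beside the mean of marker lists in the same way. Col17a1 had r = 0.962 with the surface epithelium markers over the 20 groups and 0.961 over the 10 position differences. Col2a1 with the cartilage markers had 0.808 and 0.933, Col9a3 had 0.957 and 0.933, and Col11a1 had 0.951 and 0.865. Col5a1 had 0.924 and 0.959 with the endothelial markers, and Col7a1 had 0.906 and 0.677 with those of surface epithelium. These pairs were picked from all pairs of gene and list, and other lists came as close for some genes. Col11a1 had 0.952 and 0.835 with the endothelial markers, and Col5a1 had 0.953 and 0.154 with the tendon markers. Col7a1 had 0.541 and 0.733 with the mesenchyme markers. Genes and markers were read from the same arrays, and no correlation was tested.

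Genes that modify, cross-link and bind collagen were counted from lists chosen for the purpose. Over all genes, 18.3% were higher and 17.9% lower in the distal mandible, 31.6% and 19% in the distal maxilla, 27.7% rose and 16.5% fell from E10.5 to E11.5 in the mandible, 13.3% rose and 17.2% fell from E13.5 to E14.5 there, and 26.5% rose and 27.8% fell from E12.5 to E14.5 in the maxilla. Of 19 measured genes for chain modification and folding, 19 rose in the maxilla between E12.5 and E14.5, with a median of 0.62. Among them were P3h4 (1.18), Crtap (1.08) and P3h1 (1.27), parts of the prolyl 3-hydroxylation machinery, and Creb3l1 (1.86), a transcription factor of secretory cells. From E10.5 to E11.5 in the mandible 11 of the 19 rose and 4 fell, and from E13.5 to E14.5 there 13 rose and 0 fell. In the distal mandible 14 of the 19 were lower and 1 higher, P4ha2, a prolyl 4-hydroxylase subunit (0.32), whereas in the distal maxilla 8 were higher and 2 lower. Crtap (-0.30) and the lysyl hydroxylase gene Plod1 (-0.36) were among those lower in the distal mandible.

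Of 4 measured cross-linking enzymes, 3 were lower in the distal mandible, Lox (-1.34), Loxl3 (-0.56) and Loxl1 (-0.25), and 4 rose in the maxilla between E12.5 and E14.5. Propeptide processing genes numbered 6, of which 4 were lower and 1 higher in the distal mandible and 4 higher and 0 lower in the distal maxilla. Adamts3, which cleaves the amino-terminal propeptide, differed by -0.44 in the mandible and 0.51 in the maxilla, and Pcolce, an enhancer of carboxyl-terminal cleavage, by -0.38 and 0.29.

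Of 10 fibril-binding genes, 9 rose from E10.5 to E11.5 in the mandible and 9 from E12.5 to E14.5 in the maxilla. In the mandible the small leucine-rich proteoglycan genes Ogn (6.06), Aspn (4.59), Kera (2.60) and Lum (2.42) had the smallest p. Epyc, a proteoglycan of cartilage, was lower distally in both jaws, by -2.84 in the mandible and -1.09 in the maxilla. Ogn and Aspn were under the limit at E10.5 in the mandible, and Epyc at E10.5 in both jaws, so the size of these differences is uncertain.

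Receptors and degrading enzymes were mixed by position. Among 7 receptor genes 2 were higher and 2 lower in the distal mandible, with Itga1 at -0.55 and Ddr1 at 0.31, and 3 higher and 1 lower in the distal maxilla. From E12.5 to E14.5 in the maxilla 5 of the 7 rose, Itga10, the receptor chain of chondrocytes, by 2.07. Of 6 degradation genes 3 were higher and 3 lower in the distal mandible, and 5 rose in the maxilla between E12.5 and E14.5, among them Mmp9 (2.97) and Mmp13 (2.64, from a mean of 3.16 under the limit), proteases of growing bone. Of 5 transcription factors of collagen genes, Sox9 (-1.02), Scx (-0.58), Sox5 (-0.42) and Sox6 (-0.22) were lower and Sp7 (0.62) higher in the distal mandible.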

How the data were processed

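RNA of 60 samples in 20 groups of 3 was measured on Affymetrix Mouse Genome arrays. The deposited values are log2 signals per probe set that the authors made with RMA, per the submitters' processing notes. RMA in its usual form normalises arrays to 1 distribution, which reduces global shifts. Of 45101 probe sets, 34945 carried 1 gene symbol in the platform annotation, 932 several and 9160 none, and 64 were controls. Each of 18193 genes was read from its brightest probe set by mean signal. The collagen genes (82 probe sets, 42 genes) and all lists were chosen with earlier results of these data known. Named genes were up to 4 called ones per direction and comparison with the widest difference and a mean of at least 6 in the higher group, and up to 4 called ones of smallest p per list.

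limma 3.58.1 in R 4.3.3 fitted 20 group means to all 60 arrays (lmFit, eBayes with trend), with two-sided tests, Benjamini-Hochberg adjustment over 18193 genes and a threshold of 0.05. No low-value filter was applied. Alternatives were the mean of probe sets, centring, repeated quantile normalisation, a dim filter, no trend, only the arrays compared, left-out arrays, 1 position, replicate blocks and group means as samples; the block for jaws and ages and some left-out arrays were added after seeing the data. The fits were tested on simulated data. Replicate numbers recur across groups, but of 30 same-numbered pairs 10 correlated over 0.1. Distal and proximal numbers were taken to pair in the E10.5 maxilla alone, where all 3 pairs did (0.34, 0.17 and 0.265). Figures used Python 3.11.15 and matplotlib 3.10.9.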

Additional observations from a re-analysis of the deposited data

Results flagged for a closer look

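Position differences that were unlike between jaws drew attention through a test of the difference itself, which crosses batches. Over the mean of ages 24 of the 42 collagen genes differed so. The distal minus proximal difference of the mandible minus that of the maxilla was 0.74 for Col22a1, -1.34 for Col14a1, -0.8 for Col6a3, -0.76 for Col9a3 and -0.76 for Col6a1. The position difference varied over the ages for 28 collagen genes of the mandible and for 27 of the maxilla, by an F test in limma. Beside the jaw contrast, cartilage markers differed likewise in 6 of 9 (all less distal in the mandible) and neuron markers in 5 of 5 (all the other way), and their part was not tested.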

How the results depend on the processing

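The counts of collagen genes called moved by over 1.5 times in 6 alternatives and by less in 174. With group means as single samples they were 5 by position in the mandible (3.01% of all genes called), 7 in the maxilla (20.5%) and 4 for the contrast between jaws (3.74%). Between jaws at E12.5 the distal pieces alone gave 16, from E13.5 to E14.5 the distal mandible alone gave 14, and over the same day the proximal maxilla alone gave 10. For named genes 839 alternatives kept direction and call, 22 lost the call and 1 reversed, Col25a1 between jaws at E12.5, which was 0.546 in the proximal pieces. The cause was not tested. With group means as samples, 20 values entered the fit in place of 60. Comparisons of 1 position used the fit to all 60 arrays, with 3 arrays a side in place of 6. The mean of probe sets also kept all 60 arrays. Leaving out 1 replicate gave 22 to 27 and 21 to 24 genes by position in mandible and maxilla, 19 to 22 for the contrast, 17 to 19 and 25 to 26 between jaws, 24 to 26 and 19 to 24 over ages in the mandible, and 32, 17 to 18 and 33 to 34 in the maxilla. By-age counts were 22 to 24 and 18 to 23, and single-age calls summed to 73 to 80 and 64 to 65. With the replicate block 31 and 27 genes were called by position and 26 for the contrast. Every group has the same numbers, but they paired the samples of 1 jaw and age alone, the E10.5 maxilla, where each pair correlated over 0.1 and best with its own number; its count of 11 was 11 with the replicate block too. Over all 30 pairs correlations ran from -0.356 to 0.438, with 10 highest for their own number. No detection calls were used, so low signals have no measured background.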
